A study of Mus musculus with 16 samples.

Results

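Transforming growth factor β (TGF-β), activin and bone morphogenetic protein (BMP) signalling was followed through 42 genes in livers of Gadd45β wild type (WT) and Gadd45β knockout (KO) mice. The genes were taken by name from a list of the pathway's best known parts, chosen with earlier results of these data known. The shares of members called are therefore no independent test of the pathway. They comprised 12 ligands, 11 receptors, 6 SMADs, 10 modulators and 3 response genes. In all, 19096 genes could be named on the array. All 42 had a probe, 20 had several, and each gene was read through its brightest probe. The test covered 13302 genes whose probe stood well above background throughout at least 1 group, and 40 of the 42 members were among them. On all 16 arrays, 37 of the 42 stood well above background.

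Livers came from 57-week-old male mice in 4 groups of 4 animals, 1 array for each animal. WT animals were C57BL/6J. KO animals were null mutants for Gadd45b, a gene for a stress and DNA damage response protein, and came from a stock of mixed strain background (allele Gadd45b tm1Flv), so that the mutation and the strain background cannot be told apart. Every mouse had received diethylnitrosamine (DEN), a liver carcinogen that acts as tumor initiator, once at 5 weeks of age at 90 mg/kg, and no group without DEN was analysed here. The groups WT DEN and KO DEN drank plain water, whereas WT DEN + PB and KO DEN + PB drank phenobarbital (PB), an activator of the nuclear receptor CAR and a liver tumor promoter, at 0.5 g/l from 7 weeks of age on. The tissue was liver, taken outside tumors per the methods of the study, and not sorted cells. The level of a gene is given as the log2 signal of its probe relative to the 75th percentile of the same array. A level of 0 stands for a signal equal to that percentile. Such levels were compared between groups for one probe and never between probes.

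In this pathway a dimeric ligand brings together type I and type II receptors, which are serine/threonine kinases, and the type I receptor phosphorylates receptor SMADs that enter the nucleus with Smad4. TGF-β and activins act mainly through Smad2 and Smad3, BMPs mainly through Smad1, Smad5 and Smad9, while Smad6, the Smurf ubiquitin ligases, Ski, Skil, Tgif1, follistatin and the pseudoreceptor Bambi restrain signalling, and latent TGF-β binding proteins (Ltbp) hold TGF-β in the matrix. In liver the pathway is known for limiting hepatocyte growth, for driving stellate cells to make matrix, and, through BMPs, for setting hepcidin and iron levels.

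Promoter sequences were read for the 32 members listed in a RefSeq promoter table of mouse build GRCm38.p6, and those of 4 members on which the comparisons turned are shown. Tgfbr2 is the receptor that the study followed, Gdf15 and Ltbp3 passed the test for PB in WT livers, and Inhba had the largest genotype difference among the members under DEN alone. Each line runs 5′ to 3′ on the strand of the gene over the 250 bases before its start, with capitals marking CAGAC or its reverse complement GTCTG, the short box that SMAD3 and SMAD4 bind. Tgfbr2 lies on the minus strand at chr9:116175364-116175613, Gdf15 on the minus strand at chr8:70632457-70632706, Ltbp3 on the plus strand at chr19:5740650-5740899 and Inhba on the plus strand at chr13:16011601-16011850.
Tgfbr2: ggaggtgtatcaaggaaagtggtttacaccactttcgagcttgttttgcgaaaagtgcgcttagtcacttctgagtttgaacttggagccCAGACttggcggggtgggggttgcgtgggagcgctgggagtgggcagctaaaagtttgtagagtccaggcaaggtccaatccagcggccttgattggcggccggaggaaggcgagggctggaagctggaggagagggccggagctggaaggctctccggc
Gdf15: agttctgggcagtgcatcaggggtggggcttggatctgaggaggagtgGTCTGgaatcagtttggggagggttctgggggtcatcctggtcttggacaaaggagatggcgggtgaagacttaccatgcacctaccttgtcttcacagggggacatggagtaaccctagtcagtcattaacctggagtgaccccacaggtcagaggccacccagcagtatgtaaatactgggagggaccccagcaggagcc
Ltbp3: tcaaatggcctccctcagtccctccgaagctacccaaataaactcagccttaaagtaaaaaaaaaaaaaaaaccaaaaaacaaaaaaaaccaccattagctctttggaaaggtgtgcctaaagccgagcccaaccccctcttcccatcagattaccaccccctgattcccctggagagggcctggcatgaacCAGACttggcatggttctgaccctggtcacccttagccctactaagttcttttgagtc
Inhba: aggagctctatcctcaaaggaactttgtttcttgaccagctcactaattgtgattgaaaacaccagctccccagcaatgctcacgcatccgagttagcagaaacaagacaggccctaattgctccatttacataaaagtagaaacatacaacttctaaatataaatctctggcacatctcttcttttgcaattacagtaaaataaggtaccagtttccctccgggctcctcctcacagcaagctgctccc
No sequence was listed for Tgfb3, Bmp2, Bmp7, Tgfbr3, Acvrl1, Smad2, Smad4, Skil, Fst and Bambi. The box was present once in each of the first 3 windows and was not found in that of Inhba. Across the members with a promoter it was present in 17 of 32 (53.1%), beside 11380 of 27025 promoters in the whole table (42.1%). The GC-rich SMAD site GGCGCC, which reads the same on both strands, was present in 7 of 32 members (21.9%), beside 2577 of all promoters (9.54%). These matches describe letters in a window and no binding was measured.

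The targeted gene followed the labels. Gadd45b could be measured above background in 8 of 8 WT livers and in 0 of 8 KO livers, and was at least 23.6-fold lower in KO than in WT livers under DEN and at least 44.8-fold lower under DEN + PB. These bounds set the WT mean against the lowest signal that was well above background on each KO array. The share of spots clear of background ran from 58.3% to 67.7% over the arrays, and no spot was saturated. Hepatocyte markers were detected in every group, with a summed signal of 1056 to 1619 times the array percentile over 8 genes. A difference is said to be called where the adjusted p of limma (Benjamini-Hochberg over all tested probes) was under 0.05 and the change at least 1.5-fold. An exact permutation test with 4 against 4 arrays cannot go below p = 0.0286 (two-sided). Every called difference of a member reached that value with groups that did not overlap. As the calls were made on the same arrays, this adds no separate support. With normexp background correction of the spot medians in place of the scanner's own correction, 1 of the 17 called differences of members, that of Inhba between genotypes under DEN, was still called. Sizes changed little for Gdf15 (1.22 with PB in WT and 1.07 in KO), for Inhba with PB in KO (-0.96) and for Ski (0.80). For genotype under DEN + PB they shrank to between -0.64 (Skil) and -0.41 (Bmp5), and Ltbp3 with PB in WT to 0.30.

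The first question was which members answered PB in WT livers. Gdf15, a stress-induced cytokine that is a divergent member of the TGF-β superfamily, and Ltbp3, which binds latent TGF-β, rose. Those were 2 of 40 tested members (5%), both higher, beside 0.737% of all tested genes. As the list was chosen with earlier results known, the larger share among members is not independent support. Over the 40 members the median log2 difference was 0.07, beside -0.02 over all tested genes, and 25 of 40 lay above 0.

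In WT livers Gdf15 had log2 signals of 2.29, 1.40, 1.27 and 1.30 under DEN and of 2.87, 3.25, 3.03 and 2.77 under DEN + PB. KO livers gave 1.06, 1.26, 0.96 and 1.47 for Gdf15 under DEN and 2.82, 2.50, 1.98 and 2.08 under DEN + PB. In both genotypes every PB array lay above every DEN array, and 1 WT DEN array stood above the other 3. The rise with PB was 1.42 ± 0.24 (log2 difference ± SE, n = 4 against 4), or 2.67-fold, with an adjusted p of 0.0052 in limma. It was present on 3 of 3 slides that held both WT groups, from 0.96 to 1.61, and gave an adjusted p of 0.0226 with the slide as a block.

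For Ltbp3, the log2 signals were -1.74, -1.73, -1.74 and -1.40 on the WT DEN arrays and -1.02, -1.12, -1.06 and -0.82 on the WT DEN + PB arrays. KO livers read -1.47, -1.59, -1.78 and -1.51 for Ltbp3 under DEN and -1.81, -1.47, -1.64 and -1.58 under DEN + PB. The WT DEN + PB arrays thus stood above all others. Ltbp3 rose by 0.65 ± 0.14 with PB in WT livers (1.57-fold, limma adjusted p = 0.0335). On 3 of 3 slides it was higher (0.62 to 0.74), but with the slide as a block the adjusted p was 0.106, and the call held in 8 of 16 repeats that left out 1 array, with adjusted p-values up to 0.12 without WT DEN replicate 1. A dimmer second probe of Ltbp3 gave 0.46 ± 0.32 with an adjusted p of 0.874.

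Tgfbr2, the type II receptor that binds TGF-β itself, was the receptor followed by the study. Its log2 signals were 2.17, 2.19, 2.46 and 2.32 in WT DEN livers and 2.74, 2.92, 2.94 and 3.14 in WT DEN + PB livers. In KO livers the probe for Tgfbr2 read 1.91, 1.91, 1.71 and 1.84 under DEN and 2.70, 2.49, 2.29 and 2.12 under DEN + PB. In each genotype the lowest PB array exceeded the highest DEN array, and the KO arrays lay below the WT arrays of the same treatment. The log2 difference with PB was 0.65 ± 0.15 in WT (1.57-fold, limma adjusted p = 0.0545) and 0.56 ± 0.15 in KO (1.47-fold, limma adjusted p = 0.0679), so neither was called. With quantile normalization the WT value was 0.71 with an adjusted p of 0.0167, and with the slide as a block 0.71 with an adjusted p of 0.0859. The other 8 tested receptors, among them Tgfbr1, the type I partner of Tgfbr2, differed with PB in WT by -0.19 (Acvr2a) to 0.31 (Acvr1) and none was called.

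**Figure D1:**
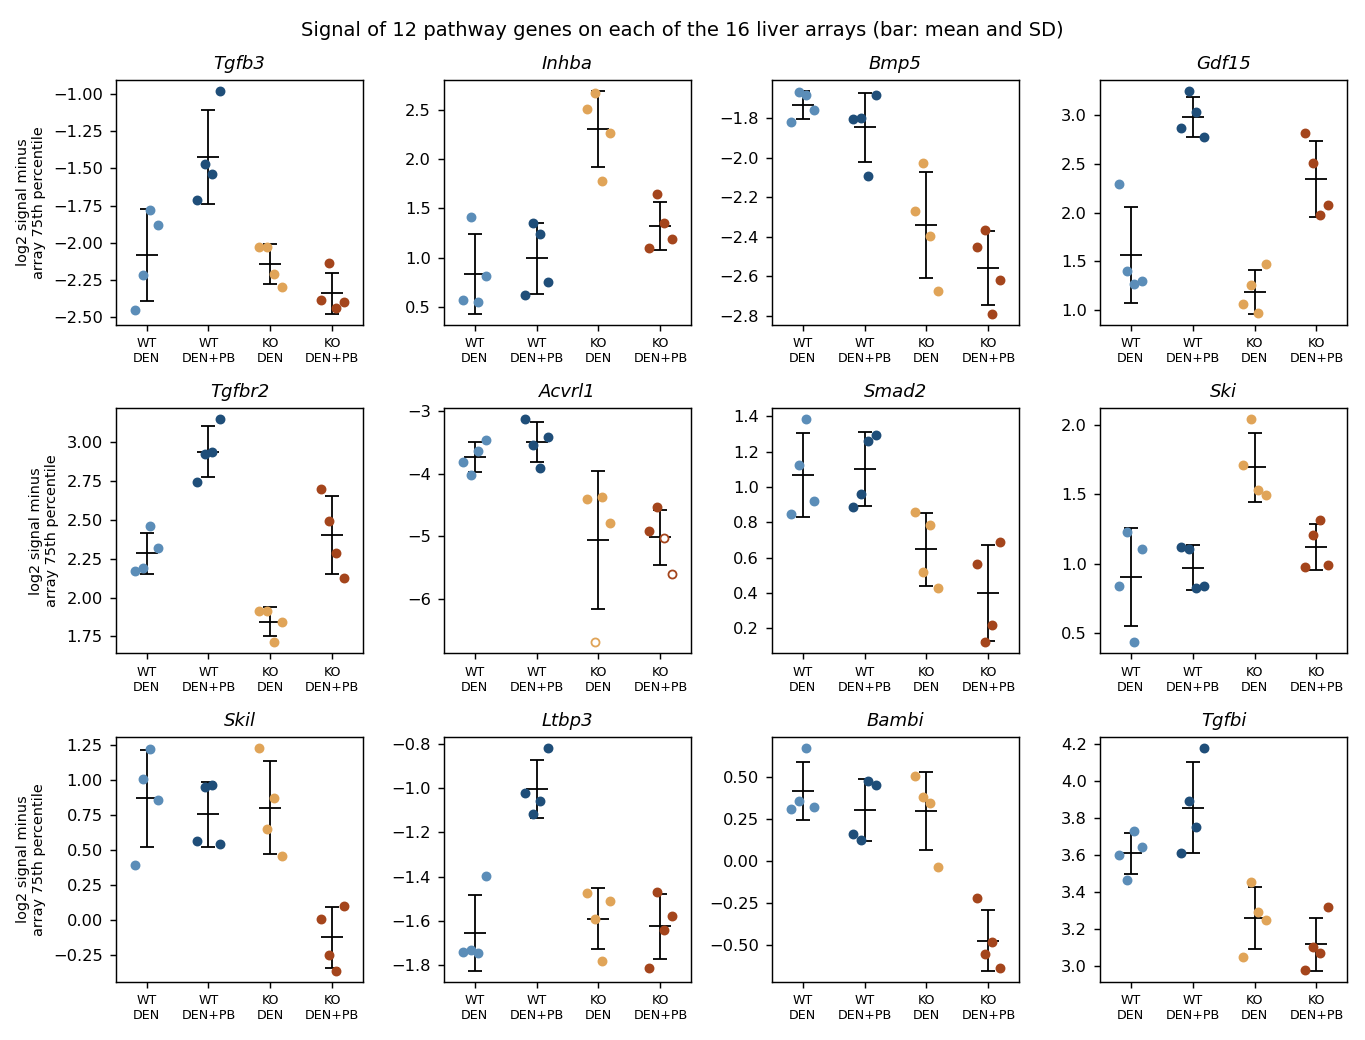
Log2 signal relative to the 75th percentile of the array (vertical axis) for 12 members in the 4 groups (horizontal axis); each point is 1 array, bars give the mean and SD of 4 arrays, and open points were not well above background. Gdf15 and Tgfbr2 lay higher on every PB array than on every DEN array of the same genotype. Ltbp3 and Tgfb3 were highest on the WT DEN + PB arrays.

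The remaining ligands, SMADs and response genes were not called for PB in WT livers. Tgfb3, one of the 3 TGF-β ligands, came nearest. Its log2 signals were -2.45, -2.22, -1.78 and -1.88 in WT DEN livers and -1.71, -1.47, -1.54 and -0.98 in WT DEN + PB livers. In KO livers they were -2.03, -2.03, -2.21 and -2.30 under DEN and -2.39, -2.14, -2.44 and -2.40 under DEN + PB. The WT DEN + PB arrays stood above the 12 other arrays, but the difference of Tgfb3 from WT DEN was 0.66 ± 0.18 with a limma adjusted p of 0.159. Tgfb1 differed by 0.06 ± 0.28. The SMADs lay between -0.30 (Smad1) and 0.09 (Smad3). Id2 and Id3, the BMP targets that bind and block basic helix-loop-helix factors, gave -0.56 ± 0.25 and -0.66 ± 0.34, with limma adjusted p-values of 0.657 and 0.745.

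PB in KO livers moved 4 members. Gdf15 rose, and Inhba, Skil and Bambi fell. Inhba encodes the activin A subunit, Skil (SnoN) is a SMAD corepressor whose gene is itself a TGF-β target, and Bambi is a receptor decoy without a kinase. They made up 10% of the 40 tested members, beside 2.13% of all tested genes. The median of the members was -0.14, beside 0.01 over all tested genes, and 27 of 40 lay below 0. Among the 10 modulators 8 lay below 0, with a median of -0.49. Markers of other liver cells lay below 0 with PB in KO livers as well, 9 of 10 endothelial (median -0.35), 10 of 10 stellate (-0.14), 10 of 10 Kupffer cell and leukocyte (-0.34) and 6 of 6 tested biliary markers (-0.32), beside 4 of 8 hepatocyte markers (0.02). Their part in the members' values was not tested.

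Gdf15 rose by 1.16 ± 0.24 with PB in KO livers (2.23-fold, limma adjusted p = 0.0168), on 3 of 3 slides (0.76 to 1.45). The adjusted p of Gdf15 was 0.0573 without KO DEN replicate 1 and 0.0573 without KO DEN + PB replicate 2. The PB effects in the 2 genotypes come from separate arrays, and the interaction term tests the difference between them.

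For Inhba the log2 signals in KO livers were 2.51, 2.67, 1.78 and 2.26 under DEN and 1.09, 1.64, 1.35 and 1.19 under DEN + PB. WT livers gave 0.57, 1.42, 0.55 and 0.81 under DEN and 0.62, 1.35, 1.24 and 0.75 under DEN + PB. The KO DEN arrays stood above the arrays of the other 3 groups. With PB, Inhba fell by 0.99 ± 0.24 in KO livers (1.98-fold lower, limma adjusted p = 0.0463). This call held in 5 of 16 repeats that left out 1 array, with adjusted p-values from 0.0224 to 0.131, the highest without KO DEN replicate 1, and the slide as a block gave 0.0931. In WT livers the same probe differed by 0.16 ± 0.24.

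Skil read 1.23, 0.65, 0.87 and 0.46 in KO DEN livers and 0.01, -0.24, -0.36 and 0.10 in KO DEN + PB livers on the log2 scale. In WT livers the signals of Skil were 0.40, 1.00, 1.22 and 0.85 under DEN and 0.56, 0.95, 0.96 and 0.55 under DEN + PB. All 4 KO DEN + PB arrays thus lay below the 12 other arrays. The fall with PB was -0.92 ± 0.20 (1.90-fold lower, limma adjusted p = 0.0259), and a second probe of Skil gave -0.98 ± 0.25 with an adjusted p of 0.0586. With the slide as a block the adjusted p was 0.0582, and without KO DEN replicate 1, KO DEN replicate 3, KO DEN + PB replicate 2 or KO DEN + PB replicate 3 it was 0.0917, 0.0639, 0.0853 and 0.0863.

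The signals of Bambi overlapped in the 2 WT groups and in KO DEN livers. Its log2 signals were 0.31, 0.36, 0.67 and 0.32 in WT DEN, 0.16, 0.13, 0.48 and 0.45 in WT DEN + PB and 0.51, 0.38, 0.34 and -0.04 in KO DEN livers. In KO DEN + PB livers it read -0.22, -0.55, -0.48 and -0.64, below every other array. Bambi fell with PB by 0.77 ± 0.16 on the log2 scale in KO livers (1.71-fold lower, limma adjusted p = 0.0164), on 3 of 3 slides (-1.06 to -0.64) and with an adjusted p of 0.0407 with the slide as a block. The adjusted p rose to 0.064 without KO DEN replicate 1, to 0.0549 without KO DEN + PB replicate 2 and to 0.0565 without KO DEN + PB replicate 4.

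Follistatin (Fst), the secreted protein that binds activins, gave the largest PB difference of any member in KO livers but was not called. Its log2 signals were -0.68, 0.06, -1.18 and -0.34 in KO DEN and -1.94, -1.78, -1.59 and -2.27 in KO DEN + PB livers, which did not overlap. WT livers gave -1.45, -1.18, -0.69 and -1.10 under DEN and -0.64, -0.66, -0.55 and -2.38 under DEN + PB, with 1 array far below the other 3. The difference of Fst in KO was -1.36 ± 0.35 with a limma adjusted p of 0.0665. That adjusted p was under 0.05 in 1 of 10 alternatives and in 2 of 16 repeats that left out 1 array. Over those repeats it ran from 0.00702 without WT DEN + PB replicate 4 to 0.169 without KO DEN replicate 2. The former array enters only through the shared variance. Inhbe, a liver activin subunit, read 2.53, 2.56, 2.76 and 2.66 in KO DEN and 3.29, 3.55, 3.97 and 3.27 in KO DEN + PB livers. In WT livers Inhbe spread from 2.01 to 4.38 under DEN, and its difference with PB in KO was 0.89 ± 0.40 with an adjusted p of 0.381. No receptor, SMAD or response gene was called for PB in KO livers, and the SMADs lay between -0.36 (Smad1) and 0.06 (Smad6).

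**Figure D2:**
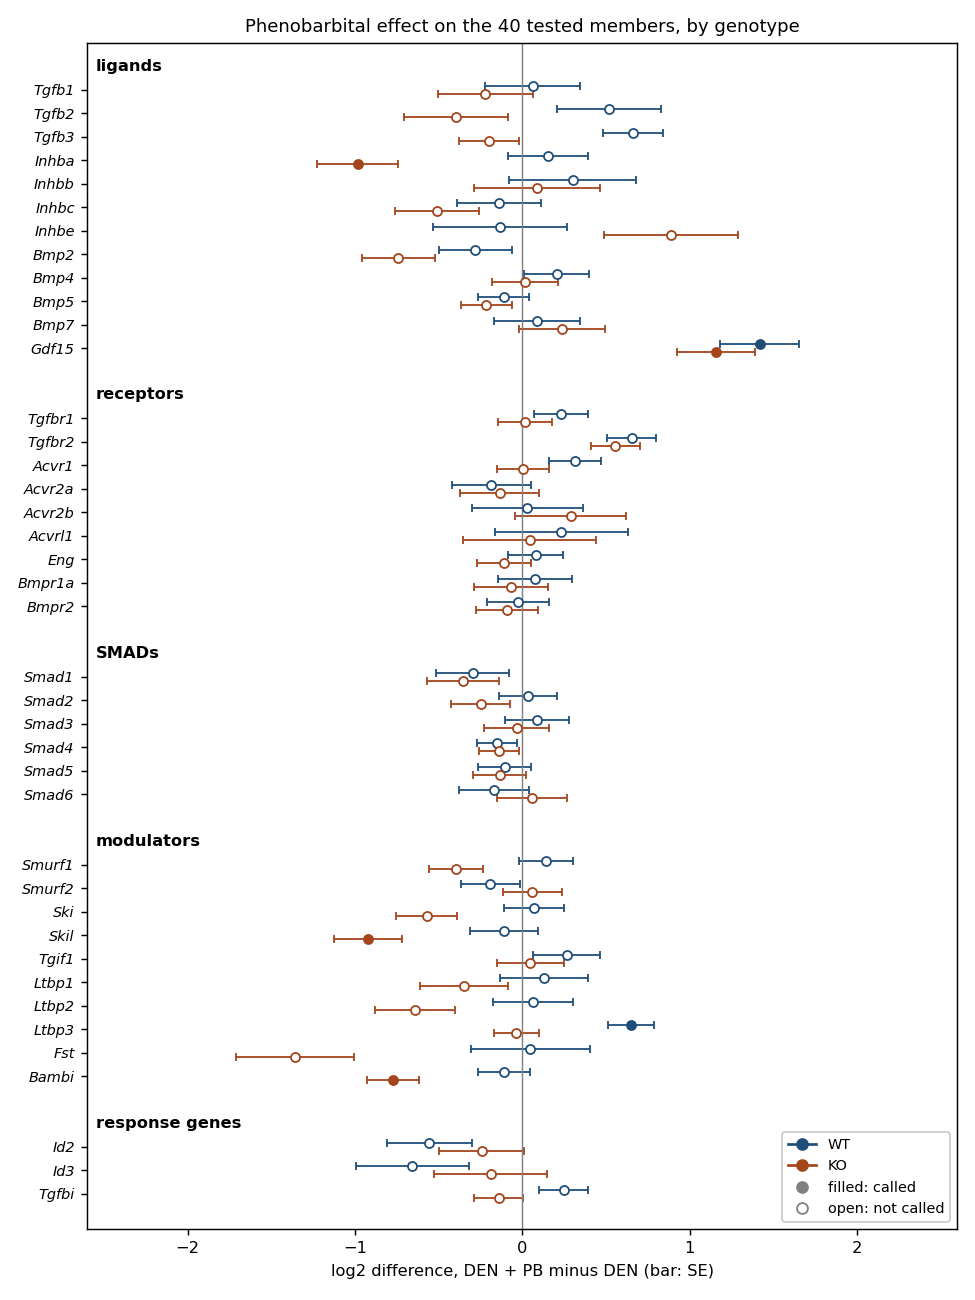
Log2 difference DEN + PB minus DEN (horizontal axis; points are limma estimates, bars SE, n = 4 against 4 arrays) for the 40 tested members by role, in WT and in KO livers; filled points were called. Gdf15 was called in both genotypes, Ltbp3 in WT, and Inhba, Skil and Bambi in KO.

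Whether PB acted differently in the 2 genotypes was tested by the interaction term, the PB difference in WT minus that in KO. No member was called by limma, and 0 of 13302 genes (0%) were called. At an unadjusted p under 0.05 there were 8 of 40 members and 880 of the 13302 genes. Those 8 were Inhba, Tgfb3, Ltbp3, Bambi, Skil, Fst, Ski and Smurf1, each with a positive term. Ltbp3 gave 0.68 ± 0.19, Tgfb3 0.86 ± 0.25 and Inhba 1.14 ± 0.34, with limma adjusted p-values of 0.416, 0.455 and 0.455. Bambi gave 0.66 ± 0.22, Skil 0.81 ± 0.29 and Fst 1.41 ± 0.50, with adjusted p-values of 0.539, 0.58 and 0.592. The effect in one genotype alone is therefore not shown to differ from that in the other for any member.

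For Tgfbr2 the term was 0.10 ± 0.21, with a 95% interval from -0.34 to 0.53 and a limma adjusted p of 0.991. Gdf15 gave 0.26 ± 0.33. Over all 40 members the median term was 0.21, beside -0.04 over all tested genes, and 31 of 40 lay above 0. By role, 9 of 10 modulators, 10 of 12 ligands, 7 of 9 receptors and 4 of 6 SMADs lay above 0, with medians of 0.65, 0.27, 0.14 and 0.04. All of these terms rest on the same 16 arrays. The markers of other liver cells lay above 0 too, 10 of 10 endothelial (median 0.30), 9 of 10 stellate (0.32), 8 of 10 Kupffer cell and leukocyte (0.41) and 6 of 6 biliary markers (1.04), beside 0 of 8 hepatocyte markers (-0.30), and their part in the members' terms was not tested.

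Between genotypes under DEN alone, Inhba and Ski were higher in KO than in WT livers, and Bmp5, a BMP ligand, was lower. Ski is the relative of Skil that represses SMAD targets. The 3 were 7.5% of the 40 tested members, beside 2.76% of all tested genes. The member median was -0.06, beside -0.04 over all tested genes. The WT DEN arrays also serve as the baseline of the PB effect in WT, and the KO DEN arrays as that of the PB effect in KO, so the comparisons share samples.

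Inhba was 1.47 ± 0.24 higher in KO DEN than in WT DEN livers (2.77-fold, limma adjusted p = 0.0046), on 2 of 2 slides that held both groups (1.96 and 2.10). The call stayed in all 16 repeats that left out 1 array, with adjusted p-values up to 0.0179. Under DEN + PB the difference of Inhba was 0.33 ± 0.24 with an adjusted p of 0.434.

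On the log2 scale Ski read 0.84, 1.23, 0.44 and 1.11 in WT DEN and 1.72, 2.04, 1.53 and 1.49 in KO DEN livers. Under DEN + PB its signals were 1.12, 1.11, 0.82 and 0.84 in WT and 0.98, 1.21, 1.31 and 1.00 in KO livers. The KO DEN arrays stood above all others, and under PB the genotypes overlapped. The difference of Ski under DEN was 0.79 ± 0.18 (1.73-fold, limma adjusted p = 0.0281). It had an adjusted p of 0.0675 with the slide as a block, and of 0.0673, 0.0838, 0.0554 and 0.0862 without WT DEN replicate 1, WT DEN replicate 3, KO DEN replicate 1 or KO DEN replicate 2. A second probe of Ski gave 0.45 ± 0.14 with an adjusted p of 0.0853, and another gave 0.32 ± 0.32 with an adjusted p of 0.628.

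For Bmp5, the log2 signals were -1.82, -1.67, -1.68 and -1.76 in WT DEN and -2.27, -2.03, -2.40 and -2.67 in KO DEN livers. Under DEN + PB the arrays gave -1.80, -1.80, -2.09 and -1.68 for Bmp5 in WT and -2.45, -2.37, -2.79 and -2.62 in KO livers. In both treatments every KO array lay below every WT array. The difference of Bmp5 was -0.61 ± 0.15 under DEN (1.53-fold lower, limma adjusted p = 0.0423) and -0.71 ± 0.15 under DEN + PB (1.64-fold lower, limma adjusted p = 0.0101). With the slide as a block the first was -0.41 with an adjusted p of 0.203, and it kept its call in 5 of 16 repeats that left out 1 array, with the highest adjusted p, 0.126, without KO DEN replicate 4. The second kept its call with the slide as a block (adjusted p = 0.00896) and in all 16 such repeats. Another probe of Bmp5 was called in neither treatment. It gave -0.47 ± 0.21 under DEN (limma adjusted p = 0.216) and -0.67 ± 0.21 under DEN + PB (limma adjusted p = 0.0612).

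Under DEN + PB, 8 members were lower in KO than in WT livers and none was higher. They were the ligands Tgfb3 and Bmp5, the receptor Acvrl1, the receptor SMAD Smad2, the modulators Skil, Ltbp3 and Bambi, and the response gene Tgfbi. This was 20% of the 40 tested members, beside 7.6% of all tested genes called in either direction and 5.84% called lower. Among the 8, Acvrl1 entered the test only through WT groups. The member median was -0.29, beside 0.03 over all tested genes, and 31 of 40 lay below 0. By role, 9 of 12 ligands, 8 of 9 receptors, 4 of 6 SMADs and 8 of 10 modulators lay below 0.

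Among the ligands, Tgfb3 was 0.92 ± 0.18 lower on the log2 scale (1.89-fold lower, limma adjusted p = 0.0055), with a log2 difference of -1.41 to -0.43 on 4 of 4 slides. The KO DEN + PB arrays of Tgfb3 overlapped those of both DEN groups, and its WT DEN + PB arrays were the ones that stood apart. Tgfb1 and Tgfb2, the other TGF-β ligands, gave -0.50 ± 0.28 and -0.53 ± 0.31, and Bmp2 and Bmp4 gave -0.52 ± 0.22 and -0.52 ± 0.20, none of them called. Gdf15 differed by -0.64 ± 0.24 with a limma adjusted p of 0.119. The activin subunits Inhba, Inhbb and Inhbe lay above 0, at 0.33, 0.28 and 0.41, and were not called. Inhbc and Bmp7 gave -0.17 ± 0.25 and -0.14 ± 0.26.

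Acvrl1 (ALK1), a type I receptor for BMP9 and BMP10 that is found mainly on endothelial cells, had a dim probe. Its log2 signals were -3.81, -4.02, -3.63 and -3.45 in WT DEN and -3.13, -3.54, -3.90 and -3.42 in WT DEN + PB livers. In KO livers Acvrl1 read -4.40, -6.69, -4.37 and -4.78 under DEN, with 3 of 4 arrays well above background, and -4.91, -4.53, -5.03 and -5.60 under DEN + PB, with 2 of 4 arrays well above background. Every KO array lay below every WT array. Neither KO group was well above background throughout, so Acvrl1 entered the test only through WT groups. Its order is therefore no separate support. The difference was -1.52 ± 0.40 under DEN + PB (2.87-fold lower, limma adjusted p = 0.0286) and -1.33 ± 0.40 under DEN (limma adjusted p = 0.0757). Without KO DEN + PB replicate 4 the first had an adjusted p of 0.0885, and it passed in 11 of 16 repeats that left out 1 array. As only 2 of 4 KO DEN + PB arrays measured Acvrl1, the size of its fold is uncertain: normexp gave -0.43 with an adjusted p of 0.889, and the adjusted p was 0.0706 with no filter and 0.0692 without moderation of variances.

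Tgfbr2 was 0.54 ± 0.15 lower in KO than in WT livers under DEN + PB on the log2 scale. Its adjusted p was 0.0353 in limma and its change 1.45-fold, under the 1.5-fold limit, so it was not called. The adjusted p was under 0.05 in 4 of 10 alternatives (0.0551 with the slide as a block) and in 10 of 16 repeats that left out 1 array (up to 0.113 without KO DEN + PB replicate 4). Under DEN the log2 difference was -0.44 ± 0.15 with an adjusted p of 0.105. Tgfbr1 gave -0.24 ± 0.16, Bmpr2 -0.36 ± 0.19, and the endothelial coreceptor Eng -0.16 ± 0.16 under DEN + PB. Other probes of Bmpr2 gave 0.14 ± 0.14 and -0.20 ± 0.13. The type I receptors Bmpr1a and Acvr1 gave -0.31 ± 0.22 and -0.10 ± 0.16, and the type II receptor Acvr2a -0.25 ± 0.24. A second probe of Bmpr1a gave -0.53 ± 0.19 (limma adjusted p = 0.115), and that of Acvr2a -0.09 ± 0.18. Acvr2b was the one tested receptor above 0, at 0.74 ± 0.33 with an adjusted p of 0.194. The probe of Acvr1b was well above background on 0 arrays, and that of the coreceptor Tgfbr3 on 4 arrays, 2 of WT DEN and 2 of WT DEN + PB, so these 2 receptors were not tested.

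Smad2, one of the receptor SMADs of TGF-β and activin, read 0.85, 1.12, 1.38 and 0.92 in WT DEN and 0.89, 0.96, 1.26 and 1.30 in WT DEN + PB livers. The KO values of Smad2 were 0.86, 0.52, 0.79 and 0.43 under DEN and 0.57, 0.12, 0.22 and 0.69 under DEN + PB. The genotypes did not overlap under PB and overlapped in 1 KO array under DEN. The log2 difference was -0.70 ± 0.18 under DEN + PB (1.63-fold lower, limma adjusted p = 0.0225), and -0.42 ± 0.18 under DEN with an adjusted p of 0.189. It had adjusted p-values of 0.0682, 0.0748, 0.0829 and 0.0635 without WT DEN + PB replicate 3, WT DEN + PB replicate 4, KO DEN + PB replicate 2 or KO DEN + PB replicate 3. Smad3 differed by 0.08 ± 0.19, Smad4 by -0.05 ± 0.12 and Smad5 by -0.08 ± 0.16 under DEN + PB. Other probes of Smad5 went opposite ways there, at 0.93 ± 0.45 (limma adjusted p = 0.225) and -0.48 ± 0.22 (limma adjusted p = 0.213). Smad1 gave 0.43 ± 0.22 and the inhibitory Smad6 -0.43 ± 0.21, neither called. A second probe of Smad1 went the other way, at -0.25 ± 0.19.

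Of the modulators, Bambi was 0.78 ± 0.16 lower on the log2 scale in KO than in WT livers under DEN + PB (1.72-fold lower, limma adjusted p = 0.0067), on 4 of 4 slides. Skil was lower by 0.88 ± 0.20 (1.84-fold, limma adjusted p = 0.0148), while its second probe gave -0.33 ± 0.25 with an adjusted p of 0.456. Ltbp3 was lower by 0.62 ± 0.14 (1.54-fold, limma adjusted p = 0.0109), while its second probe gave 0.02 ± 0.32. Bambi and Skil were low on the KO DEN + PB arrays, whereas Ltbp3 was high on the WT DEN + PB arrays. Smurf2, a ubiquitin ligase that acts on receptors and SMADs, differed by 0.28 ± 0.18 through its brightest probe, but another of its probes gave 0.63 ± 0.13 (limma adjusted p = 0.0073), and 0.64 ± 0.13 under DEN (limma adjusted p = 0.0142). Its probes thus disagreed, and the remaining one gave -0.23 ± 0.27. The corepressor Tgif1 gave -0.61 ± 0.20 with a limma adjusted p of 0.0776, and Ltbp1, Ltbp2 and Smurf1 gave -0.52, -0.15 and -0.26, none of them called. A second probe of Smurf1 went the other way, at 0.69 ± 0.23 with an adjusted p of 0.0766. So did another probe of Ltbp1, well above background on 8 arrays, at 1.00 ± 0.78.

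Tgfbi, a matrix protein named for its induction by TGF-β, was the called response gene. WT livers gave log2 signals of 3.60, 3.47, 3.73 and 3.64 under DEN and of 3.61, 3.89, 3.75 and 4.18 under DEN + PB. KO livers read 3.05, 3.46, 3.29 and 3.25 for Tgfbi under DEN and 2.98, 3.10, 3.07 and 3.32 under DEN + PB. All KO arrays lay below all WT arrays in both treatments. The log2 difference was -0.74 ± 0.15 under DEN + PB (1.67-fold lower, limma adjusted p = 0.0063), on 4 of 4 slides (-1.20 to -0.50), and -0.35 ± 0.15 under DEN with an adjusted p of 0.195. Id2 and Id3 gave -0.18 ± 0.25 and 0.37 ± 0.34 under DEN + PB, and a second probe of Id2 gave 0.40 ± 0.18 with an adjusted p of 0.199.

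**Figure D3:**
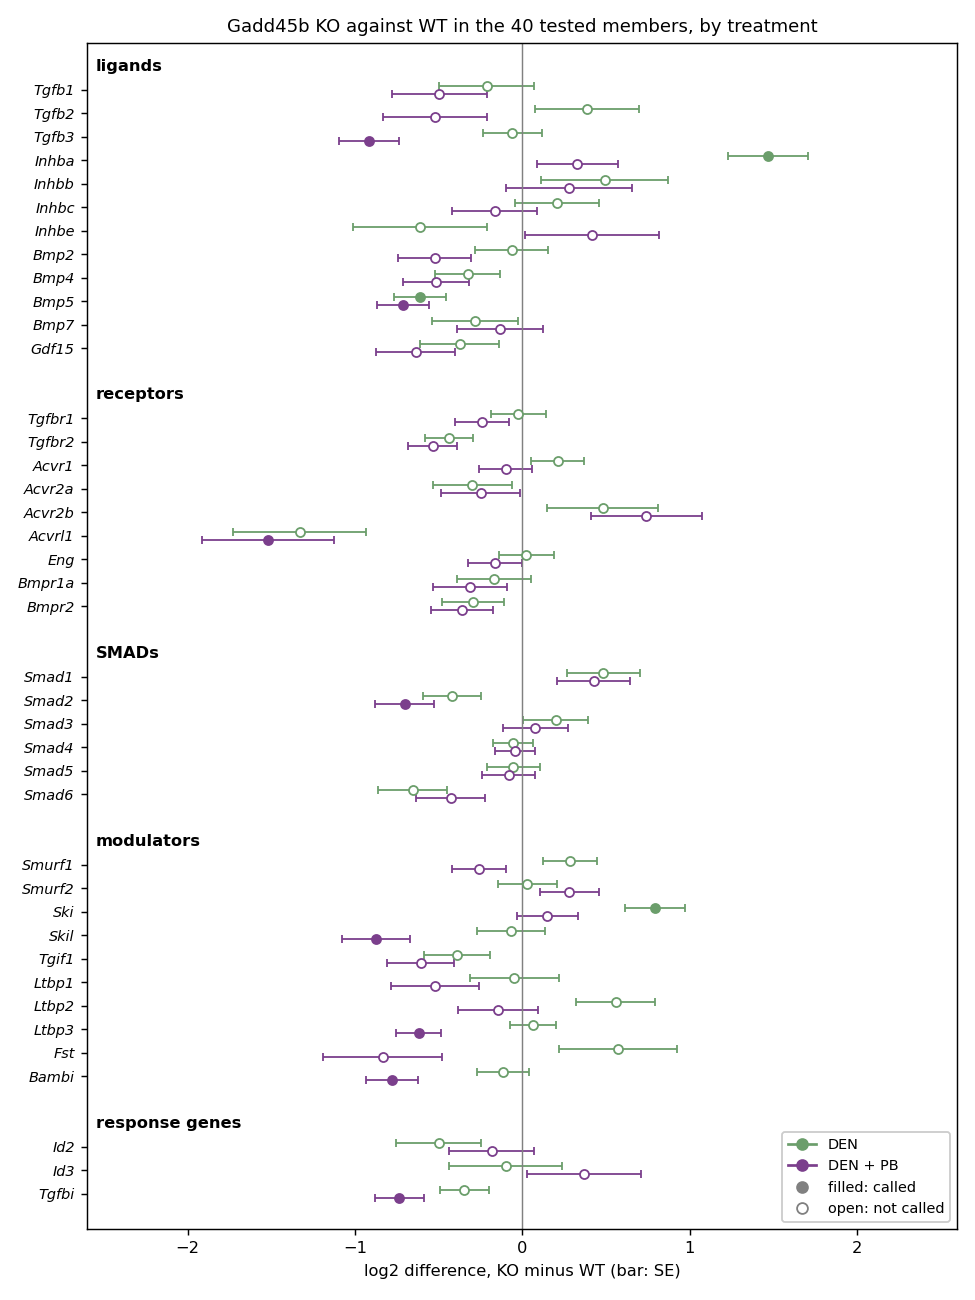
Log2 difference KO minus WT (horizontal axis; points are limma estimates, bars SE, n = 4 against 4 arrays) for the 40 tested members by role, under DEN and under DEN + PB; filled points were called. Under DEN + PB the 8 called members lay below 0, and under DEN Inhba and Ski lay above 0 and Bmp5 below.

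Markers of nonparenchymal cells, which whole liver also holds, differed between the genotypes too. The summed signal of 10 endothelial markers, in multiples of the array percentile, ran from 53.0 to 66.1 in WT DEN, 50.6 to 64.0 in WT DEN + PB, 30.2 to 49.5 in KO DEN and 30.8 to 36.1 in KO DEN + PB livers. For 10 stellate cell markers the ranges were 93.5 to 113.5, 96.9 to 118.6, 71.5 to 89.3 and 63.0 to 78.7, in the same order. Both sums were lower on every KO array than on every WT array. Acvrl1 and Tgfbi had that order too, Bmp5 had it within each treatment, and Smad2 only under DEN + PB. For Acvrl1, which entered the test only through WT groups, this order is no separate support. Bambi and Skil were instead low on the KO DEN + PB arrays only, and Tgfb3 and Ltbp3 were high on the WT DEN + PB arrays only. Under DEN + PB, 5 of 10 endothelial markers (Pecam1, Tek, Clec4g, Emcn and Oit3) and 4 of 10 stellate markers (Lrat, Reln, Dcn and Hgf) were called lower in KO, beside 5.84% of all tested genes. Under DEN they were 2 and 1 of 10, beside 2.76% of all tested genes called in either direction.

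The 10 Kupffer cell and leukocyte markers summed to 55.0 to 217 in WT DEN, 70.7 to 81.6 in WT DEN + PB, 38.6 to 54.6 in KO DEN and 29.3 to 60.9 in KO DEN + PB livers, and 7 of 10 were called lower in KO under DEN + PB. Under DEN 4 of 10 were called lower in KO, beside 2.76% of all tested genes called in either direction. Among 8 biliary markers 6 were tested. Of these, Krt19 and Krt7 were called higher with PB in WT livers, beside 0.737% of all tested genes called in either direction. Under DEN + PB, 3 of the 6 were called lower in KO. Beside this count and that of the Kupffer cell and leukocyte markers under DEN + PB, 5.84% of all tested genes were called lower in KO. The mean hepatocyte sum was lowest for WT DEN + PB, at 1170. The other means were close together, with 1409 for KO DEN + PB, 1380 for KO DEN and 1409 for WT DEN. The WT DEN + PB arrays (1056 to 1308) overlapped those of WT DEN (1188 to 1579). With PB in WT livers 8 of 8 hepatocyte markers lay below 0 (median log2 difference -0.29), none of them called. Between genotypes under DEN + PB, 7 of 8 lay above 0 (median 0.28). There 1 of 8 (Tat) was called higher in KO, beside 7.6% of all tested genes called in either direction. Of all these markers, Cftr was not above background on any KO array, and the others were above background on at least 1 array of each group. The part of these cells in the lower Acvrl1, Tgfb3, Tgfbi, Bmp5, Smad2, Bambi, Skil and Ltbp3 signals was not tested, and fewer cells of a type and less RNA per cell cannot be told apart in whole liver.

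**Figure D4:**
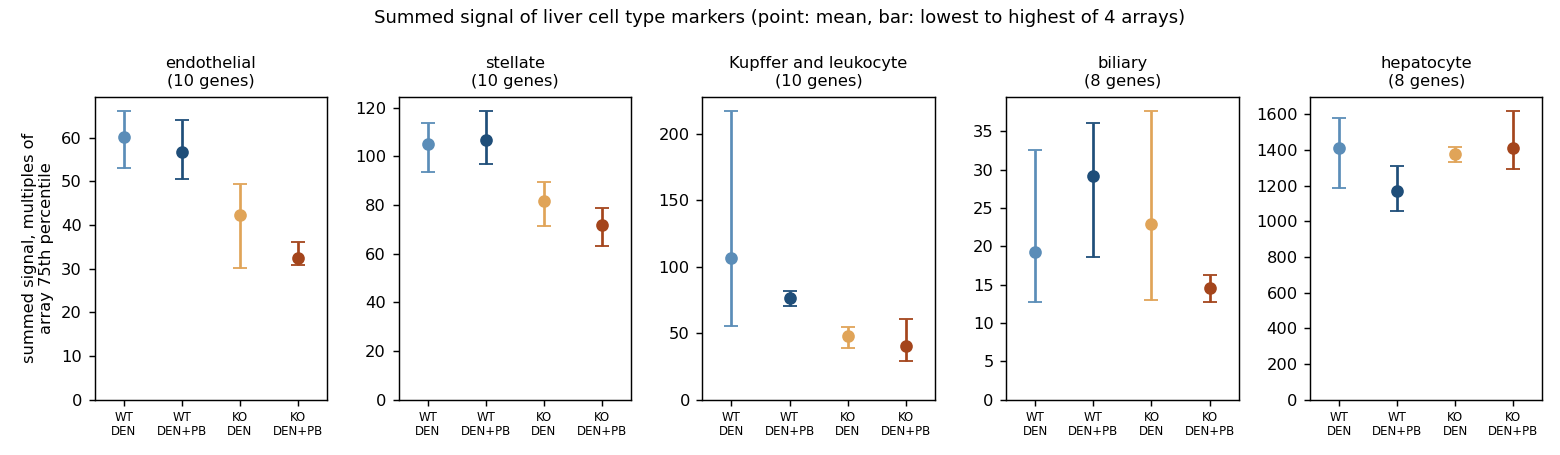
Summed linear signal of marker genes of 5 liver cell types (vertical axis, multiples of the array 75th percentile, starting at 0) in the 4 groups; points are means and bars run from the lowest to the highest of 4 arrays. Endothelial and stellate sums were lower in both KO groups than in both WT groups.

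Other genes of the pathway were read from a wider list of 81 genes, of which 76 had a probe and 57 were tested. For PB, 1 of 57 was called in WT livers and 0 of 57 in KO livers by limma, beside 0.737% and 2.13% of all tested genes. At an unadjusted p under 0.05 there were 6 and 13 of 57, beside 1105 and 1764 of 13302 genes. The interaction called 0 of 57, with 9 at that level, beside 880 of 13302. The 1 was Hamp, which encodes the iron hormone hepcidin, a target of BMP signalling in hepatocytes, and which has a close copy in mouse, Hamp2. Hamp fell by 2.15 ± 0.39 on the log2 scale with PB in WT livers (4.42-fold lower, limma adjusted p = 0.0124). It was 1.91 ± 0.39 higher in KO than in WT livers under DEN + PB (3.76-fold, limma adjusted p = 0.0077).

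Between genotypes under DEN, 5 of the 57 were called (8.77%), 1 higher and 4 lower in KO, beside 2.76% of all tested genes. Sik1, a kinase gene that TGF-β induces, was higher by 2.13 ± 0.49 (4.38-fold, limma adjusted p = 0.0292), with 3 of 4 WT DEN arrays above background. Id1, a BMP target like Id2 and Id3, was lower by 1.66 ± 0.42 (3.16-fold, limma adjusted p = 0.0423). Lefty1, a secreted Nodal antagonist, and Pmepa1, a TGF-β target that holds back SMADs, gave -0.84 ± 0.19 and -0.74 ± 0.19 and were called lower.

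Under DEN + PB, 8 of the 57 were called (14.0%), 1 higher (Hamp) and 7 lower in KO, beside 7.6% of all tested genes called in either direction and 5.84% called lower. Dcn, among those called lower, is also on the stellate marker list and was counted there too. Pmepa1 was lower by 1.77 ± 0.19 (3.40-fold, limma adjusted p = 6.5e-05), with 3 of 4 KO DEN + PB arrays above background. Cdkn2b, the cyclin-dependent kinase inhibitor that TGF-β induces, was lower by 1.22 ± 0.18 (2.34-fold, limma adjusted p = 0.00084). Lefty1 was lower by 1.10 ± 0.19 (2.15-fold, limma adjusted p = 0.002). The median of the 57 genes was -0.17 in both genotype comparisons, beside -0.04 under DEN and 0.03 under DEN + PB over all tested genes. These genes were measured on the same arrays as the marker sums above, whose part in them was not tested.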

How the data were processed

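Liver RNA of 16 mice was labelled with Cy3 and hybridised to 1-colour Agilent arrays, 1 for each mouse, on 4 slides scanned on 1 day. The deposited scanner files hold an intensity for each spot, which the authors obtained with Agilent Feature Extraction 12.0.3.1 per the file headers, background-subtracted and not scaled between arrays. The deposited series table holds the authors' mean processed intensity for each probe and was used as an alternative only. Outlier-flagged spots were left out (71 to 122 of 43379 on an array), spots of a probe were averaged, and log2 values were set relative to the 75th percentile of each array. Probes were named through RefSeq accessions (GRCm38.p6), which gave 28223 of 41174 probes a symbol (68.5%).

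A probe entered the test where it stood well above background throughout at least 1 group of 4 arrays (24455 probes, 59.4%). limma 3.58.1 in R 4.3.3 fitted 4 group means to all 16 arrays, and p-values were adjusted over all tested probes. Calls needed an adjusted p under 0.05 together with a change of at least 1.5-fold. The number of arrays limits the precision. Mice were taken as separate animals per the labels. The replicate numbers did not pair mice, as same-numbered arrays of different groups did not deviate together.

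Members and gene lists were chosen with earlier results of these data known. Values on every array are given for Tgfbr2 and for members with an adjusted p under 0.05 in any comparison. Fst and Inhbe were added after their values were seen. Of the wider pathway list, called genes are named, at most 4 a comparison by size, beside the marker lists of endothelial, stellate, Kupffer cell and leukocyte, biliary and hepatocyte genes. The fit was tested on simulated data. Alternatives were another background correction (normexp with offset 50), quantile normalization and the series table without scaling. Further ones were other filters, blocks, variances and probes, and leaving out each array. Normexp was planned on spot means but run on spot medians, because the scanner output held no spot means.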

Additional observations from a re-analysis of the deposited data

Results flagged for a closer look

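For the 12 members given array by array and for Fst and Inhbe, added after their values were seen, 56 groups of 4 were searched for an array far from the other 3, where chance alone flags about 1 in 20, or 2.8 of 56. There were 4, of which 3 were in WT DEN livers. Gdf15 read 2.29 on WT DEN replicate 1, above the other 3 arrays (1.27 to 1.40). Bambi read 0.67 on WT DEN replicate 3, beside 0.31 to 0.36 on the others. Ltbp3 read -1.40 on WT DEN replicate 4, beside -1.74 to -1.73 on the others. Fst read -2.38 on WT DEN + PB replicate 4, below the other 3 arrays (-0.66 to -0.55).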

How the results depend on the processing

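Counts of called members moved with the processing. Where the reference analysis called 2 members for PB in WT, 4 for PB in KO, 3 between genotypes under DEN and 8 under DEN + PB, normexp background correction called 0, 0, 1 and 0, and the cause was not tested. PB in WT called 1 with the series table, with no filter, with the slide as a block and with only the 2 groups compared. PB in KO called 0 with the series table, and 2 with no filter, with the slide as a block, without moderation of variances and with only the 2 groups compared. Under DEN the genotypes gave 0 with the series table, and 1 with no filter, with the slide as a block, with only the 2 groups compared and with the mean of all probes of a gene. Under DEN + PB the other alternatives called 6 to 9. There Acvrl1 and Smad2 were lost with no filter, Acvrl1 without moderation, Smad2 with the series table (adjusted p = 0.0502), and Skil and Ltbp3 with the mean of all probes (0.0595 and 0.379). The interaction called 0 members under every alternative.

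Leaving out each array gave 1 to 3 called members for PB in WT, 0 to 5 for PB in KO, 1 to 3 between genotypes under DEN and 6 to 9 under DEN + PB. PB in KO fell to 0 without KO DEN replicate 1 and without KO DEN + PB replicate 2, and to 2 without KO DEN + PB replicate 3. Under DEN the count was 1 without WT DEN replicate 1, WT DEN replicate 3 or KO DEN replicate 1, and PB in WT gave 1 without any one of its 8 arrays except WT DEN replicate 4. Under DEN + PB, Tgfb3, Bmp5, Bambi and Tgfbi stayed under an adjusted p of 0.05 in 9 of 10 alternatives, all but normexp, and in 16 of 16 repeats without 1 array.

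Replicate numbers did not pair the mice. Over 24 same-numbered pairs of arrays from different groups, the correlation of deviations from the group means ran from -0.27 to 0.41 with a median of -0.004, and 8 pairs were over 0.1. The replicate block called 2, 3, 0, 3 and 8 members for PB in WT, PB in KO, the interaction and the genotypes under DEN and DEN + PB. Under normexp the signs of 2 uncalled members turned, Tgfb2 in the interaction (-0.16) and Acvr2b between genotypes under DEN + PB (-0.00028). The series table without scaling moved the median of all tested genes to -0.29 for PB in KO, 0.35 for the interaction and -0.31 between genotypes under DEN + PB. Dim probes limit Acvrl1, Tgfbr3 and Acvr1b.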
